A study of Mus musculus with 3 samples.

Results

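The genes of oxidative phosphorylation (OXPHOS) were followed in single-cell transcriptomes of mouse cochlear organoids. Members were taken by symbol from the deposited gene table: nuclear genes starting with Nduf, Uqcr, Atp5, Cox4, Cox5, Cox6, Cox7 or Cox8, and the mitochondrially encoded mt-Nd, mt-Co, mt-Atp and mt-Cytb genes. This gave 102 of 31053 features, 89 of them nuclear and 13 mitochondrial. The 89 nuclear entries held 88 symbols, since Atp5o was listed under 2 identifiers, one of them at 0 UMIs in each library. By role, and by symbol, 38 entries belonged to complex I (with Ndufa4, which is today assigned to complex IV), 8 were complex I assembly factors, 8 belonged to complex III, 18 to complex IV and 17 to ATP synthase. The 13 mitochondrial genes were the mitochondrial features of the table, so their sum is also the mitochondrial share commonly used to judge cells.

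The respiratory chain in the inner mitochondrial membrane passes electrons from NADH through complex I, ubiquinone, complex III and cytochrome c to complex IV, which reduces oxygen. Complexes I, III and IV pump protons, and ATP synthase uses the resulting gradient to make ATP. The mitochondrial genome encodes core subunits of these complexes, and the nuclear genome encodes the remaining core, the accessory subunits and the assembly factors. Hair cells, the mechanosensory cells of the cochlea, are known for dense mitochondria and a high demand for ATP.

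Organoids were grown from Lgr5+ cochlear progenitor cells of C57BL/6 mice, and 1 library was made from each of 3 groups. The expansion group (passage 2, day 8) was kept in medium with EGF, bFGF, IGF, CHIR99021, Y-27632 and LPA. The day 5 and day 25 groups had been moved to medium with bFGF, BDNF, Shh, A83-01 and RA, to which LY4115775 was added for the first 5 days only. Organoids of all groups were dissociated with trypsin, sorted as living single cells with DAPI and run with 10x Genomics 3′ v3 reagents. How many organoids or animals fed each library is not given in the sources used here.

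Barcodes with at least 500 detected genes were kept: 28163, 13902 and 6493 in expansion, day 5 and day 25. Their medians were 4911, 5952 and 8416 unique molecular identifiers (UMIs, counted transcripts). Libraries shared 22 to 133 barcode sequences by pair, none with equal totals. Each group was 1 library, so group and library cannot be told apart and no test between groups was possible. Levels are UMIs of a gene per 1000000 UMIs (CPM), summed over barcodes, and shares are percentages of summed UMIs. The 95% intervals are exact, and counting error is all they cover. A gene with 20 CPM or more on either side of a comparison was called when its CPM + 1 differed by 1.5-fold or more. The percentage of all nuclear-encoded genes that met the same rule is given as background beside each count.

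Barcodes were put into 3 classes by marker UMIs. Pou4f3-positive barcodes held at least 1 UMI of Pou4f3, a hair cell transcription factor gene. Otor-high barcodes held no Pou4f3 UMI, at least 3 UMIs and 10 per 10000 UMIs of Otor, a gene of cochlear mesenchyme, and more Otor than Epcam. Other Epcam-positive barcodes held at least 1 UMI of the epithelial gene Epcam and met neither rule. The classes held 301, 18299 and 5211 barcodes in expansion, 833, 7023 and 5134 on day 5, and 2022, 3759 and 478 on day 25, in the order Pou4f3-positive, other Epcam-positive, Otor-high.

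The class markers mostly followed the class names, and the counts include the genes that define the classes. Hair cell markers with at least 5 CPM were highest in the Pou4f3-positive class in 11 of 11, 14 of 14 and 15 of 15 cases by library. Mesenchyme markers were highest in the Otor-high class in 4 of 4, 8 of 9 and 9 of 9 cases. Epithelial markers were highest in the other Epcam-positive class in 6 of 8, 7 of 8 and 7 of 8 cases, and the remaining 2, 1 and 1 in the Pou4f3-positive class. Of the barcodes meeting the Otor rule, 0.211%, 2.10% and 4.02% also held a Pou4f3 UMI, against 1.26%, 8.35% and 33.4% of the other barcodes, at median depths between 4208 and 8597 UMIs. The Pou4f3-positive class thus held 11, 110 and 20 barcodes that met the Otor rule. Barcodes called as doublets made up 17.9%, 10.9% and 4.75% of the Pou4f3-positive class. They were 10.1%, 1.87% and 1.76% of other Epcam-positive and 12.7%, 8.26% and 1.67% of Otor-high barcodes. The Pou4f3 rule rested on a single UMI in 132, 455 and 348 barcodes, so by that share the class of day 5 is the least certain of the 3. On day 5, 329 Otor-high barcodes lay under 20 Otor UMIs per 10000 and 99 more barcodes between 5 and 10 per 10000 were left below the rule.

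Summed over each library, mitochondrial members took a larger part of the UMIs than nuclear members did. In Otor-high barcodes of day 5 the parts were near equal, at 3.71% nuclear and 3.70% mitochondrial. Over all kept barcodes the nuclear share was 3.32% in expansion, 3.66% on day 5 and 2.56% on day 25. The mitochondrial share was 5.97%, 4.27% and 6.30%. By these shares the nuclear part was highest and the mitochondrial part lowest on day 5, but the nuclear order of expansion and day 5 reversed with factors of the trimmed mean of M-values (TMM; log2 ratio -0.188) and with ribosomal protein genes left out of the total (-0.078).

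The Pou4f3-positive class held the highest share of both kinds in each library. Its nuclear share was 3.60% in expansion, 4.74% on day 5 and 3.08% on day 25, against 3.31%, 3.51% and 2.33% in other Epcam-positive and 3.25%, 3.71% and 2.34% in Otor-high barcodes. Its mitochondrial share was 7.72%, 6.03% and 9.35%, against 6.02%, 4.30% and 5.02% in other Epcam-positive and 5.80%, 3.70% and 4.51% in Otor-high barcodes. Shares of summed UMIs weight a barcode by its depth, and on day 5 that choice set the direction. There the median Pou4f3-positive barcode had a mitochondrial share of 3.59%, below the 4.39% of the median other Epcam-positive barcode, and the mean over barcodes was 0.078 lower on the log2 scale (log2 ratio -0.078) where the summed share was 0.49 higher.

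**Figure D1:**
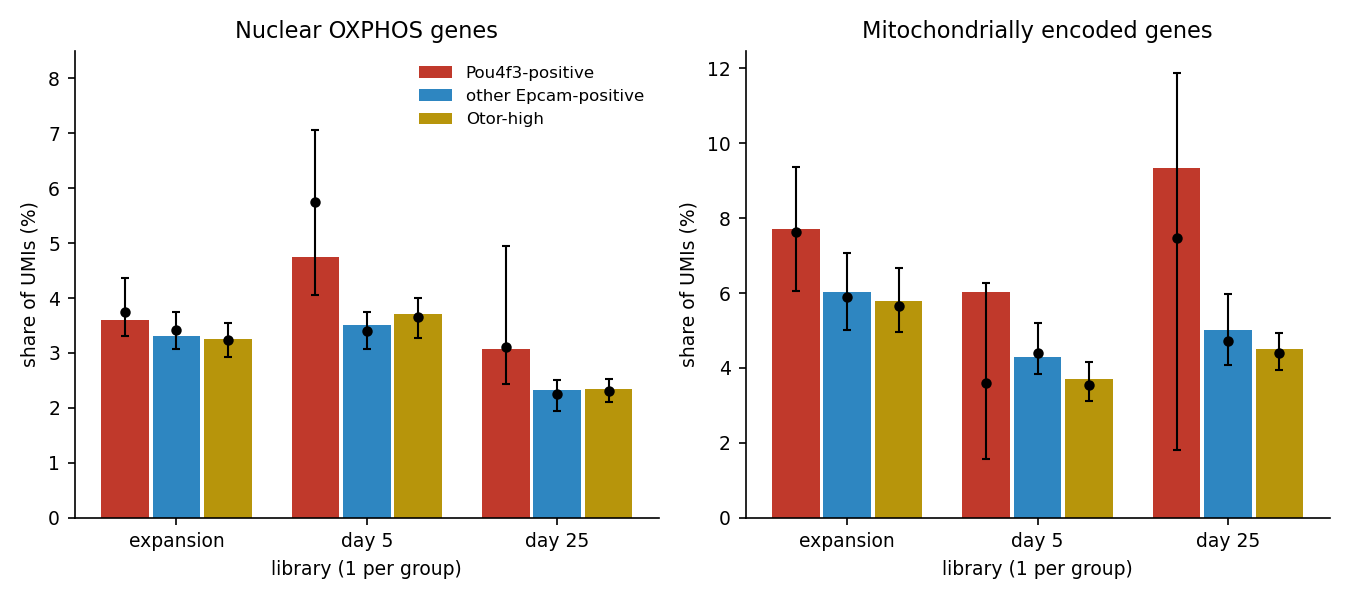
Share of UMIs (%, y axis) from nuclear OXPHOS genes (left) and mitochondrially encoded genes (right) by library (x axis) and class. Bars are shares of summed UMIs, and points with whiskers are the median and quartiles over single barcodes; on day 5 the Pou4f3-positive bar for mitochondrial genes stands at 6.03% while its median barcode is at 3.59%.

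The spread behind that median was wide and had a pair of modes. In Pou4f3-positive barcodes of day 5 the middle 50% of mitochondrial shares ran from 1.58% to 6.28%, and on day 25 from 1.81% to 11.9%. In other Epcam-positive barcodes it ran from 3.84% to 5.20% and from 4.07% to 5.97%. Barcodes with at least 2 nuclear member UMIs for each mitochondrial UMI, a bound set after the distribution was seen, were 330 of 833 Pou4f3-positive barcodes on day 5 (39.6%) and 609 of 2022 on day 25 (30.1%). They were 13 of 301 in expansion (4.32%). In the other classes of days 5 and 25 they were between 0.209% and 3.60% of barcodes, and among barcodes of no class 37.9% and 23.1%. The bound marks a range and not a cell type. On day 5, 136 Pou4f3-positive barcodes lay between 1 and 2 nuclear UMIs per mitochondrial UMI, 99 between 2 and 4, and 231 at 4 or more, and on day 25 these numbers were 108, 235 and 374.

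**Figure D2:**
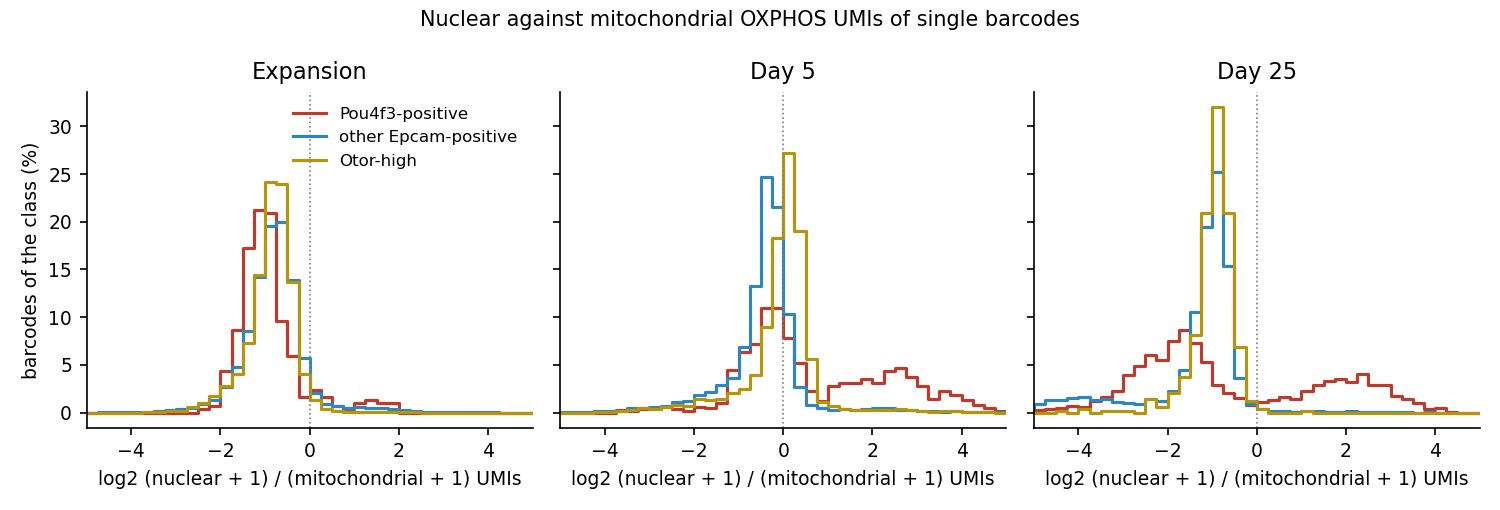
Distribution of the log2 ratio of nuclear to mitochondrial OXPHOS UMIs of single barcodes (x axis, 1 UMI added to each) in each library, as a percentage of the barcodes of a class (y axis). Pou4f3-positive barcodes show a group far to the right of 0 on days 5 and 25, where at least 2 nuclear UMIs per mitochondrial UMI were found in 39.6% and 30.1% of them.

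Pou4f3-positive barcodes on the nuclear side of that bound were shallow and differed in more than the OXPHOS genes. On day 5 they had a median of 2026 UMIs against 12287 in the rest of the class, with 6.95% nuclear and 1.37% mitochondrial member UMIs against 4.53% and 6.48%. On day 25 the medians were 4339 and 11408 UMIs, with 5.12% nuclear and 1.12% mitochondrial UMIs against 2.77% and 10.6%. Malat1, a nuclear-retained RNA, took 1.38% of their UMIs against 2.86% on day 5 and 0.664% against 2.27% on day 25. Epcam was at 139.7 against 676 CPM on day 5 and 476 against 1564 CPM on day 25. Hair cell genes did not move together. On day 25 Ocm, which encodes the hair cell calcium buffer oncomodulin, was at 5338 against 2024 CPM. Pou4f3, which sets the class, was at 937 against 660 and Calb2 at 1893 against 949 CPM. Myo7a was at 43.0 against 86.6 and Otof at 230 against 264 CPM. On day 5 Ocm was at 92.4 against 33.7, Pou4f3 at 693 against 284 and Calb2 at 489 against 186 CPM. Myo7a was at 45.1 against 96.0 CPM there, and Otof at 256 CPM on either side. The part of depth, nuclear RNA or cell state in the OXPHOS difference was not tested.

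On days 5 and 25 nuclear and mitochondrial shares also varied with depth, mostly in opposite directions in Pou4f3-positive and other Epcam-positive barcodes. In expansion the Pou4f3-positive mitochondrial share went down with depth instead, at 8.22%, 8.15% and 7.51% over the 3 ranges from 2000 UMIs, and so did that of other Epcam-positive barcodes, from 8.83% under 2000 UMIs to 5.92% from 10000. Among Pou4f3-positive barcodes of day 5 the nuclear share was 6.91% under 2000 UMIs, 6.29% from 2000 to 5000, 5.02% from 5000 to 10000 and 4.52% from 10000 UMIs. The mitochondrial share over the same ranges was 2.53%, 2.93%, 5.57% and 6.43%. Other Epcam-positive barcodes ran the other way, from 3.18% to 3.55% nuclear and from 7.92% to 4.10% mitochondrial between the shallowest and the deepest range. On day 25 the Pou4f3-positive nuclear shares were 4.01%, 4.94%, 3.20% and 2.85% and the mitochondrial shares 5.84%, 4.70%, 8.46% and 10.1%. Other Epcam-positive barcodes of day 25 went from 1.5% to 2.39% nuclear and from 14.2% to 4.69% mitochondrial. Malat1 took 0.640% of UMIs in Pou4f3-positive barcodes under 2000 UMIs on day 5 and 2.81% from 10000 UMIs, against 3.55% and 3.76% in other Epcam-positive barcodes. The make-up of the Pou4f3-positive class changed with depth too. The class rule asks for 1 UMI, which is a larger share of a shallow barcode. On day 5 Pou4f3 was at 993 CPM under 2000 UMIs and 277 CPM from 10000 UMIs, and Epcam at 212 and 688 CPM. Called doublets were 3 of 197 and 44 of 295 barcodes. The parts of depth and make-up were not tested.

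**Figure D3:**
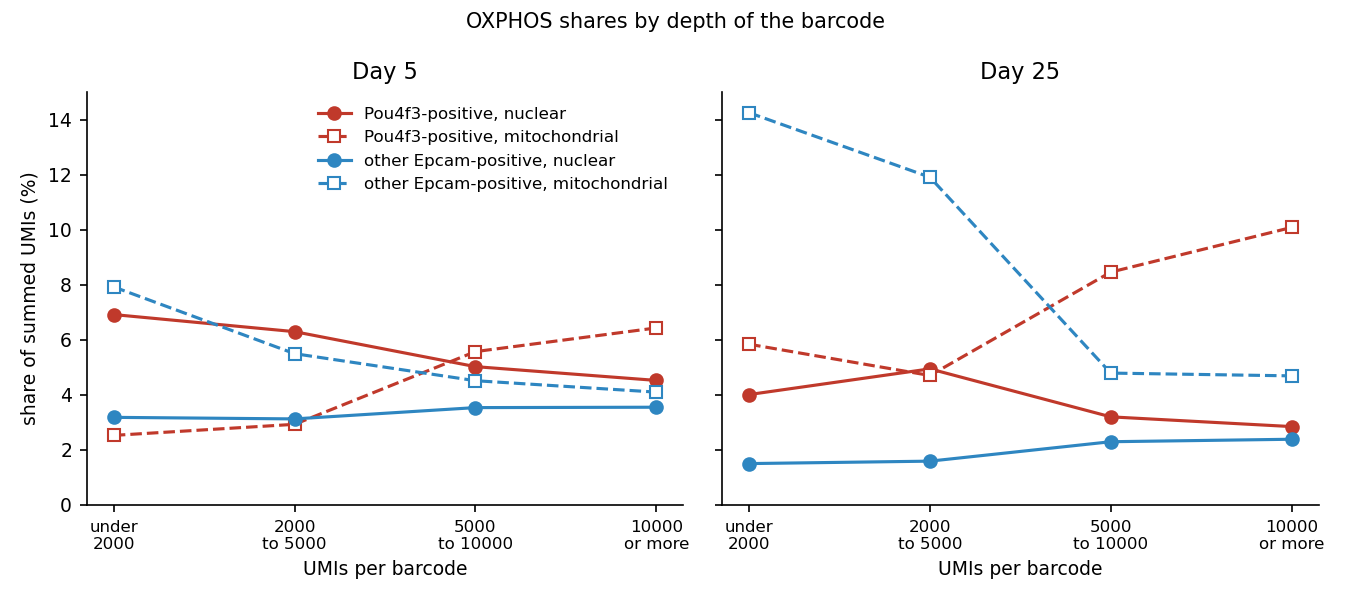
Share of summed UMIs (%, y axis) from nuclear (filled, solid) and mitochondrial (open, dashed) OXPHOS genes in 4 ranges of UMIs per barcode (x axis), for Pou4f3-positive and other Epcam-positive barcodes of days 5 and 25. On day 5 the mitochondrial share goes up with depth in Pou4f3-positive barcodes (2.53% to 6.43%; on day 25 it dips from 5.84% to 4.70% before it goes up to 10.1%) and down in other Epcam-positive barcodes (7.92% to 4.10%).

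Member by member, barcodes under 5000 UMIs were set against those with 10000 or more. In the Pou4f3-positive class of day 5 (374 and 295 barcodes), 35 of 77 measured nuclear members were higher in the shallow barcodes (background 13.8%) and 0 lower (background 40.8%), with a median log2 ratio of 0.56 against -0.37 over all genes. On day 25 (588 and 878 barcodes), 57 of 76 were higher (background 13.2%) and 0 lower (background 42.2%), with medians of 0.74 and -0.39. In the other Epcam-positive class of day 5 (2476 and 2439 barcodes), 1 of 76 was higher (background 6.37%) and 1 lower (background 0.94%). On day 25 (760 and 1520 barcodes), 0 were higher (background 20%) and 35 of 76 lower (background 16.1%).

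The members with the largest differences came from complex I and ATP synthase in the Pou4f3-positive class. Ndufa8, an accessory subunit of complex I, was at 1123 CPM in shallow and 464 CPM in deep Pou4f3-positive barcodes of day 5, and Ndufa12, another, at 784 and 373 CPM. Atp5f1, a stalk subunit of ATP synthase, was at 783 and 395 CPM. Ndufa6 led on day 25 (751 and 337 CPM), followed by Ndufc1 (555 and 263 CPM). Ndufs1, the largest core subunit of complex I, stood on the other side at 39.4 and 51.8 CPM on day 5. Of the mitochondrial genes, 1 of 13 was above 0 on the log2 scale in shallow Pou4f3-positive barcodes on each day, against 12 of 13 and 13 of 13 in other Epcam-positive barcodes, or 11 and 13 of 13 with TMM factors.

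Transcript length moved with the depth contrast. In shallow against deep Pou4f3-positive barcodes of day 25, genes that were no members and no ribosomal protein genes had median log2 ratios of 0.78 under 600 bases of transcript, 0.64 from 600 to 900, 0.45 from 900 to 1500, -0.12 from 1500 to 3000 and -0.83 above. The nuclear members had medians of 0.85, 0.79, 0.71 and 0.52 in the first 4 ranges. The members thus lay above other genes of like length, least so among the shortest transcripts.

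Against other Epcam-positive barcodes of the same library, most nuclear OXPHOS genes stood at a higher level in Pou4f3-positive barcodes on days 5 and 25. In expansion, 2 of 79 measured members were higher (background 12.3%) and 0 lower (background 6.66%). On day 5, 23 of 77 were higher (background 18%) and 1 lower (background 12.9%), with a median log2 ratio of 0.33 against 0.01 over all genes. On day 25, 26 of 76 were higher (background 28.7%) and 0 lower (background 23.4%), with medians of 0.37 and 0.10. The day 25 share of members called higher, 34.2%, was thus near the background. Above 0 lay 69 of 76 members (59 of 76 with TMM factors). The share of all genes above 0 was not counted, and their median was itself above 0 (0.10), or -0.06 with TMM factors. With TMM factors the day 25 count of members called higher was 12, and in barcodes with 10000 or more UMIs alone it was 16. No background was computed under these settings.

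Set against the backgrounds of 18% on day 5 and 28.7% on day 25, complex IV had the largest share of members called higher. On day 5 complex I had 9 of 37 measured members higher (median log2 ratio 0.32), complex III 2 of 8 (0.37), complex IV 6 of 12 (0.48) and ATP synthase 4 of 15 (0.37). On day 25 the counts were 13 of 37, 2 of 8, 5 of 11 and 4 of 15, those of complex III and ATP synthase under the background share. Assembly factors of complex I were higher in 2 of 5 cases on each day. Among transcripts of like length other genes had medians between -0.03 and 0.12 on day 5 and between 0.02 and 0.17 on day 25, and the members lay between 0.27 and 0.38 and between 0.30 and 0.45.

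**Figure D4:**
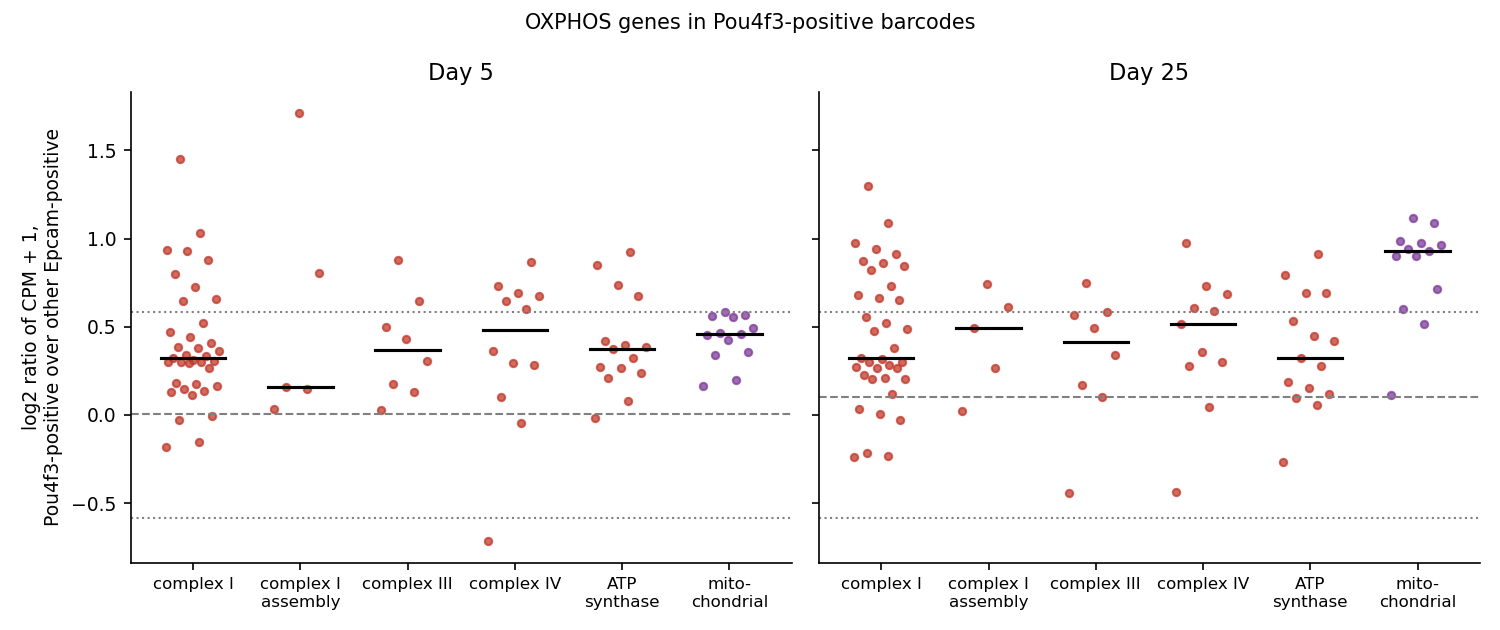
Log2 ratio of CPM + 1 (y axis) in Pou4f3-positive over other Epcam-positive barcodes for each measured OXPHOS gene (points) by role (x axis), with the median of each role (black line), the median of all genes (dashed) and the 1.5-fold bounds (dotted). On day 5, 23 nuclear genes lie above the upper bound and 1 below the lower; on day 25 the mitochondrial genes lie higher than on day 5, with 11 of 13 past the bound.

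Ndufv3, a subunit of the NADH-binding module of complex I, differed most steadily. It was at 431 CPM in Pou4f3-positive against 184 CPM in other Epcam-positive barcodes in expansion, 604 against 221 CPM on day 5 and 308 against 125 CPM on day 25. The day 5 ratio was 2.74-fold (2.66 to 2.82) and the day 25 ratio 2.47-fold (2.38 to 2.55). It was the 1 member of 75 measured throughout that was past 1.5-fold in all 3 libraries (background 8.09%), and its level in Otor-high barcodes, 164, 241 and 147 CPM, stayed near that of other Epcam-positive barcodes. Ndufaf6, an assembly factor of complex I, was at 29.6 against 12, 31.7 against 9.01 and 17.6 against 9.68 CPM, and was under the 20 CPM bound on day 25.

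Other members were higher on both days of differentiation. Ndufs1 was at 50.7 against 26.1 CPM on day 5 and 71.0 against 35.7 CPM on day 25, and Ndufa12 at 422 against 206 and 243 against 126 CPM. Cox6a1, the widely expressed isoform of a complex IV subunit, was at 464 against 254 and 368 against 186 CPM. Atp5k, a small membrane subunit of ATP synthase, was at 806 against 424 and 368 against 195 CPM. At the low end stood Cox7a1 on day 5 (24.9 against 41.6 CPM) and, within the bound, Uqcrb (269 against 366 CPM) and Cox6c (752 against 1019 CPM) on day 25.

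The promoters of 4 such members are printed because they led a class: Ndufv3, Cox6a1 and Atp5k for Pou4f3-positive barcodes, and Ndufb4 for Otor-high barcodes. Each line holds the 250 bases before the RefSeq start site in GRCm38.p6, read 5′ to 3′ on the strand of the gene. Capitals mark matches, on either strand, to GCGCANGCG (a core of the site of nuclear respiratory factor 1) or CCGGAAG (an ETS-type site, the kind bound by GABP). Both factors are known regulators of OXPHOS genes. Overlapping matches are joined.
Ndufv3, chr17:31519865-31520114, + strand: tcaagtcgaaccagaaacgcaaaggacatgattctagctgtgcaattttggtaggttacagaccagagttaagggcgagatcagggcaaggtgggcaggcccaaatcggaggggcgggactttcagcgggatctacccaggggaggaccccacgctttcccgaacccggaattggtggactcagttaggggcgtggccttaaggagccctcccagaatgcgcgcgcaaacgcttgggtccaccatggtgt
Cox6a1, chr5:115348959-115349208, - strand: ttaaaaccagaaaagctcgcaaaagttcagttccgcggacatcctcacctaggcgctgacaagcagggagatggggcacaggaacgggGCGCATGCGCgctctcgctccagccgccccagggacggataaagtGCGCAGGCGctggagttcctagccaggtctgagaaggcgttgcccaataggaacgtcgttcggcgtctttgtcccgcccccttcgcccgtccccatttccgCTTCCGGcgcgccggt
Atp5k, chr5:108434400-108434649, - strand: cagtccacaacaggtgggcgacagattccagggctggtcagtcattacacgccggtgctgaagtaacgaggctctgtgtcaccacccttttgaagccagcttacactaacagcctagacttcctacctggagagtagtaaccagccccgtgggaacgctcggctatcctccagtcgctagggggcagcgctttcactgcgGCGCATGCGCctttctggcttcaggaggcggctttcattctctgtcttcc
Ndufb4, chr16:37654369-37654618, - strand: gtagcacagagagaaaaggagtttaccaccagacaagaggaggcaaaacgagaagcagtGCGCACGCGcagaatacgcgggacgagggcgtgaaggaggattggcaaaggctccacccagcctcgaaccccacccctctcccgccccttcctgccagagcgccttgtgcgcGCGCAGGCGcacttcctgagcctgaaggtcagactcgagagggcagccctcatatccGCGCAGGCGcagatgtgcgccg

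Cox6a1 carried 3 matches to the first motif and 1 to the second, Atp5k 2 overlapping matches to the first, Ndufb4 3 matches to the first, and Ndufv3 none of either in these bases. RefSeq windows of 300 bases, 250 before and 50 after a start, were found for 73 of 88 nuclear member symbols (78 windows). GCGCANGCG was in 26.9% of them against 6.25% of all 32851 windows, CCGGAAG in 20.5% against 8.86%, and AAGATGGC (the YY1-type site) in 14.1% against 2.75%. A match is a run of letters and not a measured binding site.

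The mitochondrial genes were higher in Pou4f3-positive barcodes as well, by summed UMIs. Of 13 genes, 12, 13 and 13 lay above 0 on the log2 scale in expansion, day 5 and day 25, with medians of 0.31, 0.46 and 0.93 (12 on day 25 with TMM factors, where mt-Nd6 fell below 0). None reached 1.5-fold in expansion or on day 5, and 11 did on day 25. mt-Atp6, a subunit of the proton channel of ATP synthase, was at 21964 against 10124 CPM on day 25, 2.17-fold (2.16 to 2.18), after 13546 against 9185 CPM on day 5. mt-Nd3 of complex I was at 1684 against 792 CPM on day 25. mt-Co1, the catalytic subunit of complex IV, was at 11792 against 8239 CPM, and mt-Nd6, which is encoded on the other strand from the remaining 12 genes, at 102.4 against 94.5 CPM. These 2 did not reach 1.5-fold.

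Of the lists of pathway genes outside the member set, the 2 genes of cytochrome c and c1 had the largest median log2 ratio between these classes. It was 1.32 on day 5 and 1.26 on day 25. The backgrounds of 18% and 28.7% higher apply to the counts here too. Cycs, the gene of cytochrome c, was at 458 against 141.4 CPM on day 5 (3.24-fold, 3.13 to 3.35) and 357 against 117.6 CPM on day 25 (3.04-fold, 2.93 to 3.14). Cyc1, the gene of cytochrome c1 of complex III, was at 178 against 92.4 and 174 against 91.2 CPM. None of 4 complex II genes reached 1.5-fold on either day (median log2 ratios 0.26 and 0.29). Citric acid cycle genes were higher in 4 of 16 cases on day 5 and in 5 on day 25, when 2 were lower, and complex IV assembly genes in 3 of 12 and 7 of 12. The copper chaperone gene Cox17 was at 222 against 92.8 CPM on day 25. Mitochondrial ribosome genes were higher in 3 of 72 cases on day 5 and in 13 on day 25, when 3 were lower. Import genes were higher in 5 of 21 on each day, with 1 lower on day 25.

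Genes that regulate mitochondrial content gave a mixed picture. Of 17 biogenesis factors, 4 were measured on day 5 and 9 on day 25, and 1 and 2 were higher. Ppargc1a, which encodes the coactivator PGC-1alpha, was under 20 CPM in each class: 3.16 CPM in Pou4f3-positive and 5.77 CPM in other Epcam-positive barcodes on day 5, and 5.10 and 13.8 CPM on day 25. Tfam, the gene of the mitochondrial transcription factor, was at 27.3 against 31.6 and 35.0 against 28.6 CPM.

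Otor-high barcodes differed little from other Epcam-positive barcodes in OXPHOS sums. The nuclear share stood at log2 ratios of -0.03, 0.08 and 0.00 in expansion, on day 5 and on day 25, and all 3 changed sign with TMM factors (0.118, -0.023 and -0.154). In expansion 2 of 77 members were higher (background 6.04%) and 2 lower (background 18.6%). On day 5 these were 4 of 77 (background 16.6%) and 1 (background 16.1%), and on day 25 they were 2 of 76 (background 20.2%) and 1 (background 18.6%). The mitochondrial share stood at log2 ratios of -0.05, -0.22 and -0.15, and at 0.09, -0.322 and -0.31 with TMM factors, so its direction held on days 5 and 25.

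Single subunits differed between Otor-high and other Epcam-positive barcodes in each library. Ndufb4, an accessory subunit of the membrane arm of complex I, was at 503 against 248 CPM in expansion, 623 against 289 CPM on day 5 and 429 against 183 CPM on day 25. Cox6b2, known as the testis isoform of complex IV subunit 6B, was at 54.8 against 29.9, 30.9 against 11.2 and 28.7 against 9.76 CPM. These 2 members, of 76 measured throughout, were past 1.5-fold in all 3 libraries (background 4.77%), and the day 25 ratios were 2.35-fold (2.22 to 2.47) and 2.94-fold (2.37 to 3.62). Ndufb4 was also above other Epcam-positive barcodes in Pou4f3-positive ones, with 456 and 344 CPM on days 5 and 25. Cox6c was higher on day 5, at 2504 against 1438 CPM.

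Cox7a1, the heart and skeletal muscle isoform of complex IV subunit 7A, was low in Otor-high barcodes. It was at 25.1 against 71.0 CPM in expansion and 9.27 against 41.6 CPM on day 5, 4.49-fold lower. It was under 20 CPM in both classes on day 25 (2.33 against 7.30 CPM). Its level over all barcodes went from 62.7 to 31.4 to 6.27 CPM from expansion to day 25. The 12 muscle markers summed to 1.60, 28.1 and 110.3 CPM in other Epcam-positive barcodes of expansion, day 5 and day 25. Of these markers 2, 4 and 4 were at 0 by library, and 0, 1 and 1 had at least 20 CPM.

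Isoform partners differed in detection. Cox4i1 was at 803, 746 and 748 CPM in expansion, on day 5 and on day 25, and Cox4i2, the isoform linked to low oxygen, at 8.40, 3.39 and 1.94 CPM. Cox7a2 was at 795, 689 and 454 CPM. Cox6a2, Cox8b, Cox8c and Cox7b2, isoforms of muscle or testis, were each at or under 0.118 CPM in every library. Ndufa4l2 was under 3 CPM over all barcodes and highest in Otor-high barcodes, at 6.68, 5.74 and 11.6 CPM. In all, 77, 76 and 75 of the 89 nuclear entries had at least 20 CPM by library, and 2 were at 0 UMIs in each.

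Day 5 was next set against expansion, a comparison in which medium, time and library cannot be told apart. Of 77 measured nuclear members 6 were higher (background 29.1%) and 4 lower (background 15.1%), with a median log2 ratio of 0.06 against 0.19 over all genes. Over all barcodes the nuclear share was 1.10-fold higher. It was lower with TMM factors (log2 ratio -0.19) or with ribosomal protein genes left out of the total (-0.078). Within classes its log2 ratio was 0.396 in Pou4f3-positive, 0.084 in other Epcam-positive and 0.188 in Otor-high barcodes. With TMM factors these values were 0.298, -0.146 and -0.216. Whether the classes differ in this change was not tested. Ribosomal protein genes took 33.7%, 22.9% and 15.2% of the UMIs of the 3 libraries, in order of time. Over all barcodes TMM factors moved all genes by 0.33 on the log2 scale here and by 0.29 between days 5 and 25.

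Single subunits of the same complex went in opposite directions. Ndufa1, an X-linked subunit of complex I, went from 244 CPM in expansion to 550 CPM on day 5, 2.26-fold higher (2.23 to 2.28), and Ndufa11, another, from 251 to 535 CPM. Atp5b, the catalytic beta subunit of ATP synthase, went from 446 to 242 CPM, 1.84-fold lower (1.82 to 1.87). Ndufa12 went from 393 to 246 CPM. Of the 13 mitochondrial genes 3 were above 0 (2 with TMM factors). mt-Atp8, from 481 to 803 CPM, and mt-Nd4l, from 1029 to 1541 CPM, were among them, while mt-Nd3 went from 1344 to 764 CPM and mt-Cytb from 6923 to 4253 CPM. mt-Atp8 and mt-Nd4l overlap mt-Atp6 and mt-Nd4 in the annotation (GRCm38, M:7766-7969 and M:9877-10173), so these reads may be split between neighbours.

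From day 5 to day 25 the nuclear and mitochondrial parts went apart. Of 76 measured nuclear members 1 was higher (background 37.3%) and 37 lower (background 15%), with a median log2 ratio of -0.57 against 0.31 over all genes. The nuclear share was 0.700-fold that of day 5, and the mitochondrial share 1.47-fold. All 13 mitochondrial genes lay above 0 on the log2 scale (12 with TMM factors or without ribosomal protein genes, where mt-Atp8 fell below). The libraries also differ in Cell Ranger version, 3.0.1 on day 5 and 3.1.0 on day 25, and version and day cannot be told apart.

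Cox7a1 differed most, from 31.4 to 6.27 CPM, 5.00-fold lower (4.55 to 5.51). Ndufc1, an accessory subunit of complex I, went from 524 to 238 CPM, 2.20-fold lower (2.16 to 2.23), Ndufa1 from 550 to 260.3 CPM and Cox6b1, a complex IV subunit, from 889 to 429 CPM. Ndufs1 went from 30.3 to 46.9 CPM, 1.55-fold higher (1.48 to 1.62), and was the 1 member called higher. Atp5a1 and Atp5b, the alpha and beta subunits of the ATP synthase head, were at 360 against 252 and 331 against 242 CPM, within the bound. With TMM factors 57 members were lower and 0 higher.

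Transcript length went along with the decline. Nuclear members under 600 bases of transcript had a median log2 ratio of -0.80, those from 600 to 900 -0.53, from 900 to 1500 -0.59 and from 1500 to 3000 0.10. Other genes of these lengths had medians of -0.69, -0.63, -0.32 and 0.27, and 0.56 above 3000 bases. In these ranges the members thus lay below other transcripts of their length, except from 600 to 900 bases, and farthest below from 900 to 1500 bases. The part of length in their change was not tested. Mitochondrial ribosome genes, 33 of 72 lower and 2 higher, had a median of -0.54. Citric acid cycle genes, 6 of 16 higher and 1 lower, had a median of 0.35, near the background of 37.3% higher and the 0.31 over all genes.

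**Figure D5:**
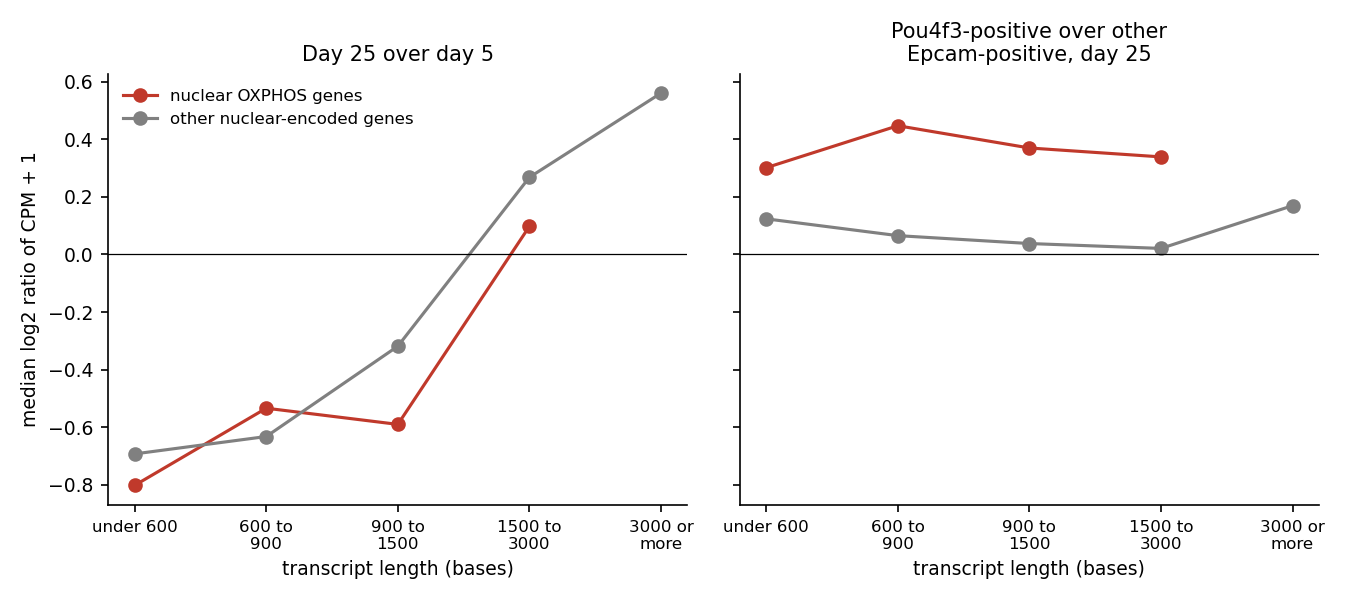
Median log2 ratio of CPM + 1 (y axis) by transcript length (x axis) for nuclear OXPHOS genes and for other nuclear-encoded genes without ribosomal protein genes, day 25 over day 5 (left) and Pou4f3-positive over other Epcam-positive barcodes on day 25 (right). Between days the OXPHOS genes lie below other genes in all but 1 of the 4 ranges given for them (-0.80 and -0.69 under 600 bases). Between classes the OXPHOS genes lie above other genes in the 4 ranges with at least 5 members.

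Among mitochondrial genes the increase from day 5 to day 25 was largest for mt-Nd6, mt-Nd5 and mt-Nd4 of complex I. mt-Nd4 was at 6826 against 2884 CPM, 2.37-fold (2.36 to 2.38), mt-Nd5 at 1645 against 691 CPM, 2.38-fold (2.36 to 2.40), and mt-Nd6 at 100.05 against 21.8 CPM, 4.60-fold (4.41 to 4.80). mt-Nd6 lies opposite mt-Nd5 with a short overlap (GRCm38, M:13552-14070 on the - strand and M:11742-13565 on the + strand), so shared reads cannot be assigned with certainty. The other complex I genes mt-Nd2, mt-Nd4l, mt-Nd1 and mt-Nd3 were 1.74-fold, 1.48-fold, 1.47-fold and 1.38-fold higher, and mt-Cytb and mt-Atp6 1.52-fold and 1.51-fold. The complex IV genes mt-Co1, mt-Co2 and mt-Co3 lay between 1.25-fold and 1.29-fold. The ratio thus varied among genes that are transcribed from 1 genome.

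The decline of nuclear members was seen within each class. In Pou4f3-positive barcodes 46 of 78 were lower on day 25 (background 19.1%) and 1 higher (background 37.8%). In other Epcam-positive barcodes these were 42 of 76 (background 15.6%) and 0 (background 34.8%), and in Otor-high barcodes 51 of 76 (background 15%) and 0 (background 33.7%). Of 75 members measured in all 3 classes 34 were lower in each (45.3%; background 8.73%), among them Ndufv3, Cox6b1, Ndufc1 and Atp5k. The 1 member higher in Pou4f3-positive barcodes was Ndufaf1, an assembly factor of complex I, at 24.9 against 15.4 CPM.

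The mitochondrial rise was uneven across classes. The share was 1.55-fold that of day 5 in Pou4f3-positive barcodes, 1.17-fold in other Epcam-positive and 1.22-fold in Otor-high barcodes. All 13 genes lay above 0 in Pou4f3-positive barcodes, also with TMM factors. In the other classes 12 of 13 did in each, but 6 of 13 with TMM factors, so the direction there depends on the scaling. Whether the classes differ in this change was not tested.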

How the data were processed

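Single-cell 3′ UMI counts of 3 libraries were used as deposited by the authors, made with Cell Ranger 3.0.1 (expansion, day 5) and 3.1.0 (day 25), per the file headers. GRCm38 and hg38 are both listed as builds, per the submitters' processing notes. The annotation release and the calling of cells are not given in the sources used here. Whether the libraries came from separate cultures is not given either.

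Barcodes with under 500 genes (935, 550 and 120) were left out. UMIs were summed per class and library to CPM, with 206305719, 139898428 and 76213669 UMIs kept. A count of 3 UMIs corresponds to 0.0145, 0.0214 and 0.0394 CPM. Fold intervals (95%, exact) cover counting error only. No test was made, since each group is 1 library. Doublets were called with scanpy 1.11.5 (2672, 664 and 171 barcodes) and kept. These are 9.49%, 4.78% and 2.63%, under the 22.5%, 11.1% and 5.19% the loading leads one to expect, so doublets may remain.

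Named genes are the 13 mitochondrial members, per comparison the 4 nuclear members with the largest difference in each direction among those with at least 20 CPM, isoform pairs and core subunits. Cox7a1 on day 25 and the genes outside the member set were named after their values were seen. Also outside the rule for named genes were genes such as Atp5k on days 5 and 25 and Ndufa12 on day 25. These were given for Pou4f3-positive over other Epcam-positive barcodes. The members and lists were chosen with earlier results of these data known. Genomic positions were matched for 31011 features. Promoter sequences are from RefSeq (GRCm38.p6). Of the nuclear members, 40 overlap another gene, so reads may be shared, among the named ones for Ndufs1, Ndufa11, Ndufa4l2, Atp5a1, Atp5b, Atp5f1, Atp5o, Cox4i1, Cox6a2, Cox6c, Uqcrb and Uqcrc2. The calling step was tested on simulated data. Alternatives covered the scaling, gene and barcode filters, class rules, thinning to 2000 UMIs (which left out 2903, 1837 and 470 barcodes), doublets and the weighting of barcodes. Python 3.11.15, numpy 2.4.6, scipy 1.17.1 and pandas 2.3.3 were used.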

Additional observations from a re-analysis of the deposited data

Results flagged for a closer look

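The contrast between shallow (under 5000 UMIs) and deep (10000 or more) barcodes ran in opposite directions in Pou4f3-positive and other Epcam-positive barcodes. The log2 ratio of the nuclear share was 0.52 against -0.18 on day 5 and 0.77 against -0.6 on day 25. That of the mitochondrial share was -1.2 against 0.48 on day 5 and -1.07 against 1.4 on day 25. These differences were not tested.

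The nuclear share of Otor-high over other Epcam-positive barcodes was -0.03 on the log2 scale in expansion and 0.08 on day 5, opposite in sign. This difference was not tested.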

How the results depend on the processing

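Settings other than the planned ones (barcodes with 10000 or more UMIs alone, further comparisons and single genes, depth contrasts) were chosen after seeing the data. Values below are log2 ratios of shares unless they count members; Pou4f3-positive and Otor-high are each over other Epcam-positive barcodes, and the cause of a change was not tested. For 88 pairs of a named gene and a comparison, 509 of 512 alternative values kept their direction. No paired analysis was possible because each group is 1 library.

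With a 2-fold bound the counts higher were 2 (Otor-high, day 5), 2 (Pou4f3-positive, day 25), 3 (Pou4f3-positive, day 5; 0 lower), 0 (day 25 over day 5; 6 lower) and 2 (day 5 over expansion; 1 lower). A pseudocount of 5 gave 0 higher on day 25 over day 5. From 1 CPM, 3 were lower in Otor-high on day 5 and 2 in Pou4f3-positive on day 25.

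With TMM factors day 25 over day 5 gave 0.271 mitochondrial and -0.804 nuclear (0 higher, 57 lower), and day 5 over expansion -0.81 and -0.188 (2 higher, 13 lower). Pou4f3-positive gave 0.734 and 0.235 on day 25 (12 higher, 2 lower) and 0.413 and 0.36 on day 5. Otor-high gave -0.322 and -0.023 on day 5 (2 lower), 0.09 and 0.118 in expansion and -0.154 nuclear on day 25. Ndufa6 (-0.088) and Uqcrc2 (-0.06) turned for day 25 over day 5 in Otor-high. Without ribosomal protein genes, in the order mitochondrial and nuclear, day 25 over day 5 gave 0.423 and -0.653, day 5 over expansion -0.701 and -0.078, Pou4f3-positive 0.832 and 0.333 (day 25) and 0.45 and 0.397 (day 5), and Otor-high -0.203 and 0.095 (day 5) and 0.084 and 0.113 (expansion). Without mitochondrial genes in the total the nuclear values were -0.484 (day 25 over day 5), 0.114 (day 5 over expansion), 0.467 (Pou4f3-positive, day 25), 0.46 (Pou4f3-positive, day 5), 0.07 (Otor-high, day 5) and -0.003 (Otor-high, day 25).

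Averaging over barcodes gave, mitochondrial and nuclear, 0.548 and -0.471 (day 25 over day 5), -0.426 and 0.103 (day 5 over expansion), 0.313 and 0.713 (Pou4f3-positive, day 25), -0.078 and 0.74 (day 5) and -0.304 and 0.092 (Otor-high, day 5). Requiring 1000 genes gave 0.556 and -0.509, -0.485 and 0.137, 0.923 and 0.392, and 0.525 and 0.409 in the first 4 of that order. Leaving out barcodes above 20% mitochondrial UMIs gave 0.507 and -0.508 (day 25 over day 5), 0.864 and 0.41 (Pou4f3-positive, day 25), 0.48 mitochondrial (day 5) and -0.001 nuclear (Otor-high, day 25). Leaving out called doublets gave 0.927 and 0.412 (Pou4f3-positive, day 25), 0.521 and 0.448 (day 5) and -0.235 and 0.084 (Otor-high, day 5). Classes set on thinned counts gave 0.884 and 0.422 (Pou4f3-positive, day 25), 0.847 and 0.649 (day 5), -0.229 mitochondrial (Otor-high, day 5) and -0.005 nuclear (Otor-high, day 25). From 2 Pou4f3 UMIs the Pou4f3-positive values were 0.963 and 0.423 (day 25) and 0.876 and 0.636 (day 5), and with 20 Otor per 10000 UMIs and no Epcam the Otor-high values were -0.208 and 0.071 (day 5). Barcodes with 10000 or more UMIs gave 1.104 and 0.255 (Pou4f3-positive, day 25; 16 higher, 1 lower), 0.65 and 0.35 (day 5), -0.199 mitochondrial (Otor-high, day 5), -0.02 and 0.013 nuclear (Otor-high, day 25 and expansion) and -0.074 for Uqcrc2 in Otor-high.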

Other observations

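On day 25, 34 of 3759 other Epcam-positive barcodes, which hold no Pou4f3 UMI, had at least 2 nuclear OXPHOS UMIs per mitochondrial UMI. Summed, Otof, the hair cell gene of the vesicle protein otoferlin, was at 220.4 CPM in them and 4.08 CPM in the rest of the class. Calb2, the gene of the calcium-binding protein calretinin, was at 1333 against 8.73 CPM, and Ocm at 4999.6 against 22.3 CPM. Their median depth was 2608.5 UMIs against 8787, and Malat1 took 0.434% of their UMIs against 2.84%.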
